A study of Homo sapiens and Mus musculus with 100 samples.

Results

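The genes described here are 36 members of the NRF2 antioxidant and NADPH programme, picked by gene symbol. They were chosen with earlier results of these data known, so their shares of calls are no independent test of the programme. All 36 had a row among the 28035 genes of each human table, and 33 had one among the 24940 genes of each mouse table, where CES1, TRIM16L and TXN had no row under the mouse-case symbol. They fall into 8 roles: regulators (NFE2L2, KEAP1, SQSTM1, MAFG), reductases that carry FAD (NQO1, TXNRD1, GSR), glutathione and thiol redox genes (GCLC, GCLM, SRXN1, TXN, PRDX1, PRDX6, GPX2), NADPH supply (PGD, TALDO1, TKT, ME1, IDH1), carbonyl and xenobiotic enzymes (PTGR1, EPHX1, CBR1, CBR3, UGDH, ALDH3A1, CES1), transporters (ABCC2, ABCC3, ABCC4, ABCB6), other NRF2-responsive genes (OSGIN1, PIR, TRIM16, TRIM16L), and the peroxide and superoxide enzymes CAT and SOD1.

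NRF2, the product of NFE2L2, is held in the cytoplasm and marked for degradation by KEAP1, a sensor of electrophiles and oxidants. When that brake is released, NRF2 pairs with a small MAF protein such as MAFG and binds antioxidant response elements near genes for glutathione synthesis, thiol reduction and NADPH supply. Vitamin B2 (riboflavin) is the precursor of FMN and FAD, and the enzymes made from NQO1, TXNRD1 and GSR each carry FAD. In liver this programme serves the clearance of quinones, carbonyls and other reactive compounds.

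RNA was measured by 3′-end sequencing after vitamin B2 deprivation, against control. HepG2, a human liver cancer cell line, was deprived or kept in control medium for 3, 6, 9 or 12 days, and Caco-2, a human colon carcinoma line, for 9 days, with 3 libraries per group. Further HepG2 sets at day 12, also with 3 libraries per group, combined deprivation with an inhibitor of AhR, an inhibitor of IDO/TDO, or an AhR or control guide RNA, and in another set Kyn or DMSO with the AhR inhibitor. AhR is the aryl hydrocarbon receptor, which switches on detoxification genes once a ligand binds it, and IDO and TDO are the enzymes that open the tryptophan ring at the head of the kynurenine pathway. Mouse hepatocytes, labelled AhR-flox in every group and 4 weeks in their treatment field, were deprived or control and had received Ad-Cre or Ad-Cont (3 libraries each), so the groups called control carry the floxed allele too. Mouse livers came from animals on a vitamin B2 deficient or control diet for 4 weeks, with 4 columns per diet. The Kyn and DMSO groups carry no vitamin B2 state of their own in the labels. Strain, sex, age, whether the guide RNA cells are 1 clone, the guide's site, the floxed exon and the promoter driving Cre were not given in the labels.

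Levels are in TPM, a read count scaled by transcript length and library, as deposited. A library held between 4049600 and 19644100 reads, recovered from the TPM steps to the nearest 100. All 9 hepatocyte markers averaged over 1 TPM in every HepG2 time-course group, and 6 of 9 enterocyte markers did in control Caco-2 cells, which also held all 9 hepatocyte markers above it. CYP1A1, the classic AhR target, averaged 23.8 ± 0.707 TPM in deprived HepG2 cells at day 12 and 3.57 ± 0.648 TPM in control cells (SD, n = 3 each). Fold changes are deprived over control on log2(TPM + 1), which understates the change of low genes. A gene was called at a limma p below 0.05 after Benjamini-Hochberg adjustment over all genes of its table, and n below is 3 libraries per group unless given.

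In HepG2 cells deprived for 12 days, most of the programme stood at a higher level than in control cells. Of the 31 members tested, 25 were called higher and 2 lower, with a median log2 fold change of 0.82. Over all 12488 genes tested, 52.4% were called in either direction and the median was 0.10, so a call alone was common at this time. The members left untested were ME1, CBR3, ALDH3A1, TRIM16 and TRIM16L, which reached at most 0.505 TPM in any library of the time course.

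Among the regulators, NFE2L2, SQSTM1 and MAFG rose, while KEAP1 was not called. NFE2L2 (hg38 chromosome 2, 177230303 to 177265131, minus strand) stood at 100, 102 and 102 TPM in deprived libraries and at 77.1, 73.7 and 67.8 TPM in control libraries, a log2 fold change of 0.48 ± 0.05 (SE; adjusted p = 5.08e-08). SQSTM1, the autophagy receptor p62 that binds KEAP1, stood at 165, 178 and 166 TPM in deprived libraries and at 68.9, 67.9 and 73.9 TPM in control libraries, a change of 1.26 ± 0.05 (adjusted p = 6.89e-16). MAFG stood at 32.2, 32 and 28.7 TPM in deprived libraries and at 23.2, 22.6 and 22.1 TPM in control libraries, a change of 0.44 ± 0.07 (adjusted p = 2.88e-05). In all 3 genes every deprived library lay above every control library. KEAP1 had 25.1, 24 and 26.3 TPM in deprived libraries and 27.3, 25.6 and 23.2 TPM in control libraries, and the groups overlapped (change -0.01 ± 0.07, adjusted p = 0.919).

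All 3 FAD-dependent reductases rose. NQO1, the quinone reductase that is the usual readout of NRF2 (hg38 chromosome 16, 69709401 to 69726630, minus strand), stood at 272, 266 and 271 TPM in deprived libraries and at 83.8, 74 and 84.2 TPM in control libraries, a log2 fold change of 1.73 ± 0.06 (SE; adjusted p = 2.36e-16). TXNRD1, the cytosolic thioredoxin reductase (hg38 chromosome 12, 104286682 to 104350307, plus strand), stood at 37.7, 36.7 and 37.9 TPM in deprived libraries and at 13.1, 13.3 and 12.1 TPM in control libraries, a change of 1.48 ± 0.06 (adjusted p = 9e-15). GSR, glutathione reductase, stood at 68.3, 63 and 66.4 TPM in deprived libraries and at 32.2, 31.9 and 31 TPM in control libraries, a change of 1.03 ± 0.06 (adjusted p = 8.76e-13). The groups were far apart in each of them, with no deprived library near a control one.

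The 7 thiol redox genes were all called higher. GCLM, the modifier subunit of the enzyme that starts glutathione synthesis, stood at 16.4, 14.8 and 15.9 TPM in deprived libraries and at 4.64, 4.26 and 4.44 TPM in control libraries (log2 fold change 1.61 ± 0.09, SE; adjusted p = 5.96e-13). The catalytic subunit GCLC changed by 0.76, the glutathione peroxidase GPX2 by 1.37, thioredoxin (TXN) by 1.31 and sulfiredoxin (SRXN1), which repairs overoxidised peroxiredoxins, by 1.25. The peroxiredoxins PRDX1 and PRDX6 moved least, by 0.47 and 0.49. SOD1, the cytosolic superoxide dismutase, rose by 0.84. CAT, catalase, changed by 0.32 (adjusted p = 0.00276), a call that was lost under quantile normalization (0.19, adjusted p = 0.0684) and median scaling (0.19, adjusted p = 0.0573).

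Of the 4 NADPH supply genes tested, the pentose phosphate genes TALDO1 and PGD and the cytosolic isocitrate dehydrogenase IDH1 rose, by 1.27, 0.42 and 0.77. TKT, transketolase, stood at 80.2, 77.3 and 82.2 TPM in deprived libraries and at 70.8, 96.3 and 81.2 TPM in control libraries, with the control libraries spread to either side of the deprived ones (log2 fold change -0.04 ± 0.08, SE; adjusted p = 0.703). PTGR1, prostaglandin reductase 1, which reduces reactive alkenals (hg38 chromosome 9, 111562967 to 111599855, minus strand), had the largest change of any member. It stood at 27.3, 26.5 and 29 TPM in deprived libraries and at 3.01, 2.75 and 4.45 TPM in control libraries, a change of 2.72 ± 0.11 (adjusted p = 6.68e-15). UGDH, which makes the sugar donor for glucuronidation, rose by 1.55, and the carboxylesterase CES1, whose reads may be shared with a near-identical copy, by 0.82. The microsomal epoxide hydrolase EPHX1 rose by 0.70, and CBR1, a carbonyl reductase, was not called (0.04, adjusted p = 0.787).

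The stress gene OSGIN1 stood at 17.1, 16.4 and 16.7 TPM in deprived libraries and at 3.64, 3.34 and 3.47 TPM in control libraries (log2 fold change 1.98 ± 0.10, SE; adjusted p = 3.89e-13). PIR, pirin, rose by 1.26. The transporters did not move as 1 group. ABCC3, which exports conjugates across the basolateral membrane, rose by 1.75, and ABCC4 was not called (0.25, adjusted p = 0.0595). ABCB6, a porphyrin transporter, stood at 9.38, 7.43 and 8.81 TPM in deprived libraries and at 17.3, 17.9 and 16.1 TPM in control libraries, a change of -0.93 ± 0.10 (adjusted p = 1.06e-07) and the only member called lower in all 4 HepG2 sets of day 12 compared further on. ABCC2, the canalicular conjugate exporter, stood at 22.9, 21.4 and 22.7 TPM in deprived libraries and at 25.4, 25.8 and 24.9 TPM in control libraries (change -0.18 ± 0.06, adjusted p = 0.0162). That small call was lost without replicate 2 of either group (adjusted p up to 0.0795) and on recovered reads (-0.04, adjusted p = 0.568).

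**Figure D1:**
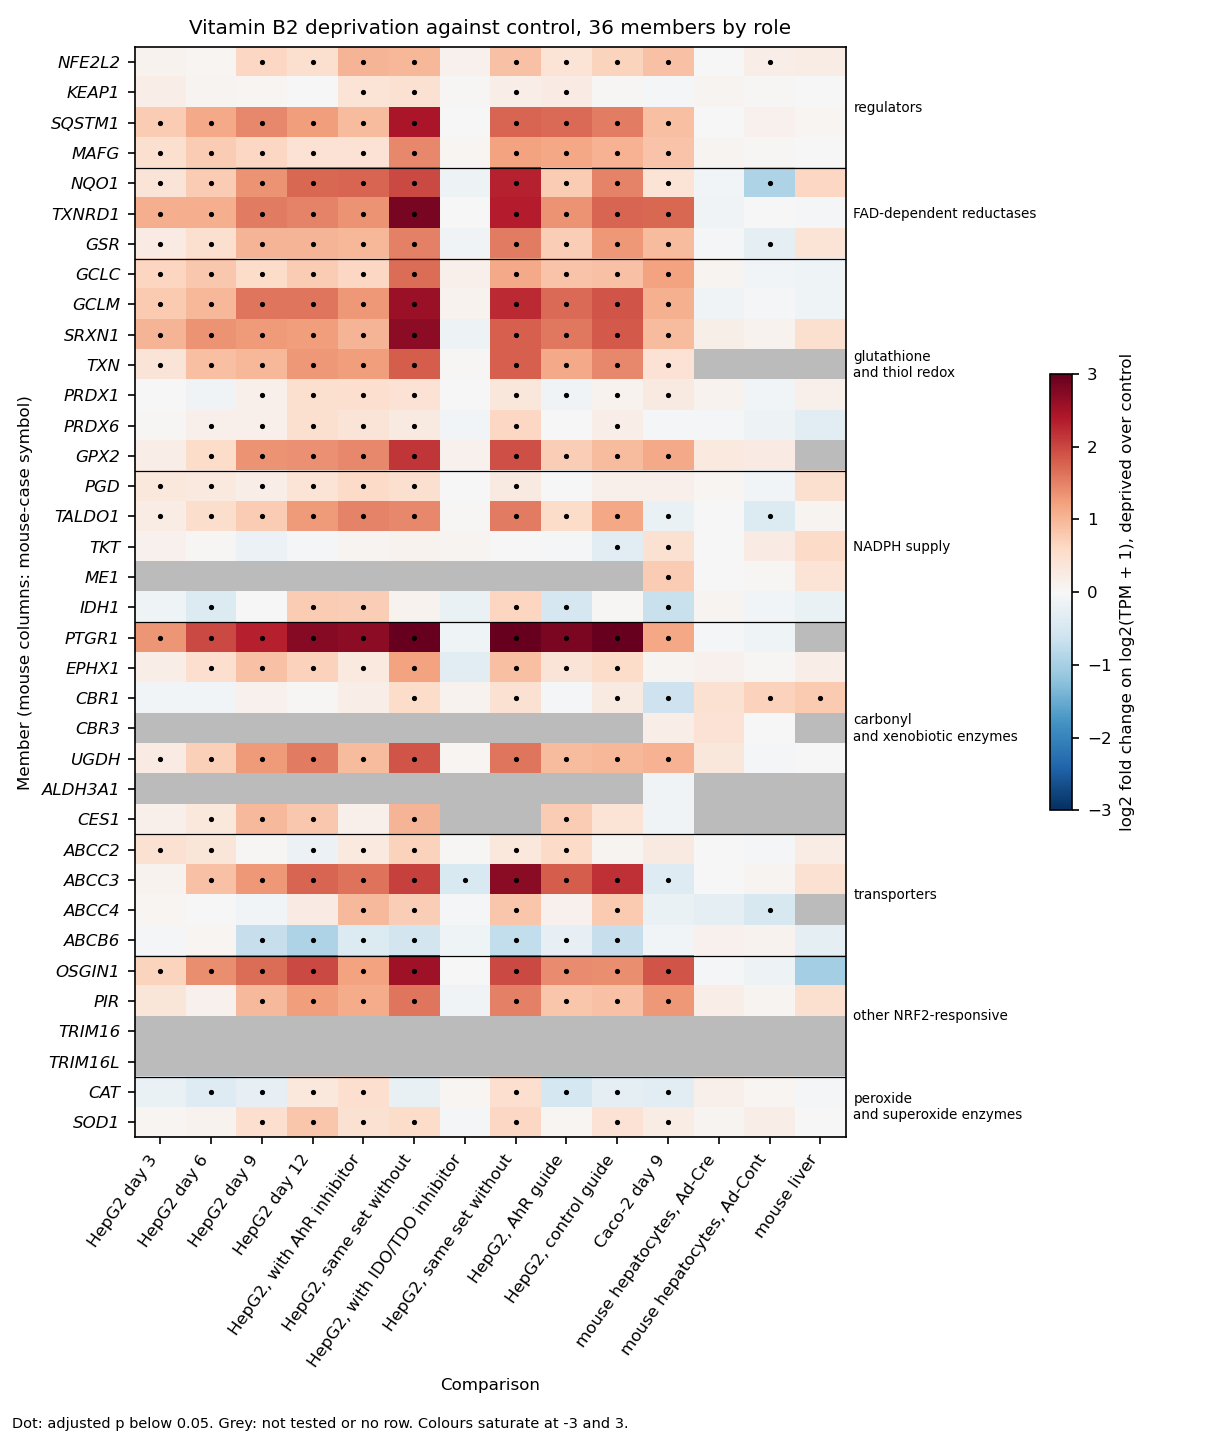
Log2 fold change of each member (down, grouped by role) on log2(TPM + 1), deprived over control, in 14 comparisons (across), with a dot where the adjusted p was below 0.05 and grey where a gene was not tested or had no row. The HepG2 columns are red for most members, with the exception of the set with the IDO/TDO inhibitor, while ABCB6 is blue in the HepG2 columns of days 9 and 12, and the 3 mouse columns hold few dots.

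The differences were present early and widened with time. At day 3, 15 of 31 members were called higher and 0 lower (median 0.23), against 4.74% of all genes called and an all-gene median of 0.02. At day 6, 20 were higher and 2 lower (median 0.49), against 33.0% of all genes. At day 9, 23 were higher and 2 lower (median 0.76), against 49.1%. The difference between the day 12 and day 3 effects was itself called in 24 members, against 37.7% of all genes. In 22 of them it was towards a higher log2 fold change at day 12.

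At day 3 the order of the members was not that of day 12. PTGR1 had 40.2, 43.2 and 42.4 TPM in deprived libraries and 15.3, 16.1 and 16.9 TPM in control libraries (log2 fold change 1.33 ± 0.11, SE; adjusted p = 5.66e-08). TXNRD1 (1.09 ± 0.06) and SQSTM1 (0.75 ± 0.05) were already well above control, while NQO1 was at 0.39 ± 0.06, with 312, 308 and 322 TPM in deprived libraries and 241, 244 and 231 TPM in control libraries. ABCC3 showed overlapping groups at day 3 (0.11, adjusted p = 0.714) and then changes of 0.87 at day 6 and 1.31 at day 9. GSR at day 3 (0.24 ± 0.06, adjusted p = 0.0148) lost its call without control replicate 1 or deprived replicate 1 or 2 (adjusted p up to 0.0835). CYP1A1 was not called at day 3 (5.54 ± 1.37 TPM in deprived and 5.49 ± 0.753 TPM in control cells, SD; adjusted p = 0.993).

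Much of the widening came with lower levels in control cells. From day 3 to day 12, 23 of 31 members were called lower in control cells and 3 higher (median -0.56), where 66.9% of all genes were called and the all-gene median was -0.21. Under quantile normalization or median scaling that split was 20 lower and 7 higher. NQO1 in control cells averaged 239 ± 6.88, 168 ± 9.04, 110 ± 9.48 and 80.7 ± 5.77 TPM at days 3, 6, 9 and 12 (SD), and in deprived cells 314 ± 7.15, 288 ± 8.07, 278 ± 16.1 and 269 ± 2.91 TPM. In deprived cells 7 members were called higher and 11 lower at day 12 than at day 3 (median -0.04), where 49.7% of all genes were called. Median scaling turned that split to 14 higher and 7 lower, and quantile normalization to 10 and 9. OSGIN1 was among those with a higher level late in deprived cells, at 17.1, 16.4 and 16.7 TPM on day 12 and 9.26, 9.5 and 10.1 TPM on day 3 (0.74 ± 0.10, SE; adjusted p = 3.9e-06).

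IDH1 and CAT changed sides over the course. IDH1 had 113, 116 and 118 TPM in deprived libraries and 161, 148 and 155 TPM in control libraries at day 6, a log2 fold change of -0.41 ± 0.06 (SE; adjusted p = 2.97e-05). At day 12 it had 76.2, 70.4 and 74.7 TPM in deprived libraries and 43.6, 39 and 46.1 TPM in control libraries, a change of 0.77 ± 0.06 (adjusted p = 1.15e-09). Both groups had less IDH1 at day 12 than at day 3, with log2 changes of -0.87 in deprived and -1.78 in control cells. CAT was lower in deprived cells at day 6 (-0.39 ± 0.08, adjusted p = 0.00105) and higher at day 12, with the limits given above.

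The cultures themselves differed in other ways as the days passed. The summed level of the 9 hepatocyte markers was 6217 to 6541 TPM in deprived libraries and 7100 to 7200 TPM in control libraries at day 3, and 8412 to 8725 TPM in deprived libraries and 28969 to 30521 TPM in control libraries at day 12. The 5 proliferation markers summed to 172 to 180 TPM in deprived libraries and 85.7 to 101 TPM in control libraries at day 12. The 5 cholangiocyte markers summed to 1239 to 1276 TPM in deprived libraries and 250 to 262 TPM in control libraries. Such sums follow their highest markers, and single markers of a list can go the other way. The part of these differences in the member changes was not tested, and in bulk RNA fewer cells of a type and less RNA per cell cannot be told apart.

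**Figure D2:**
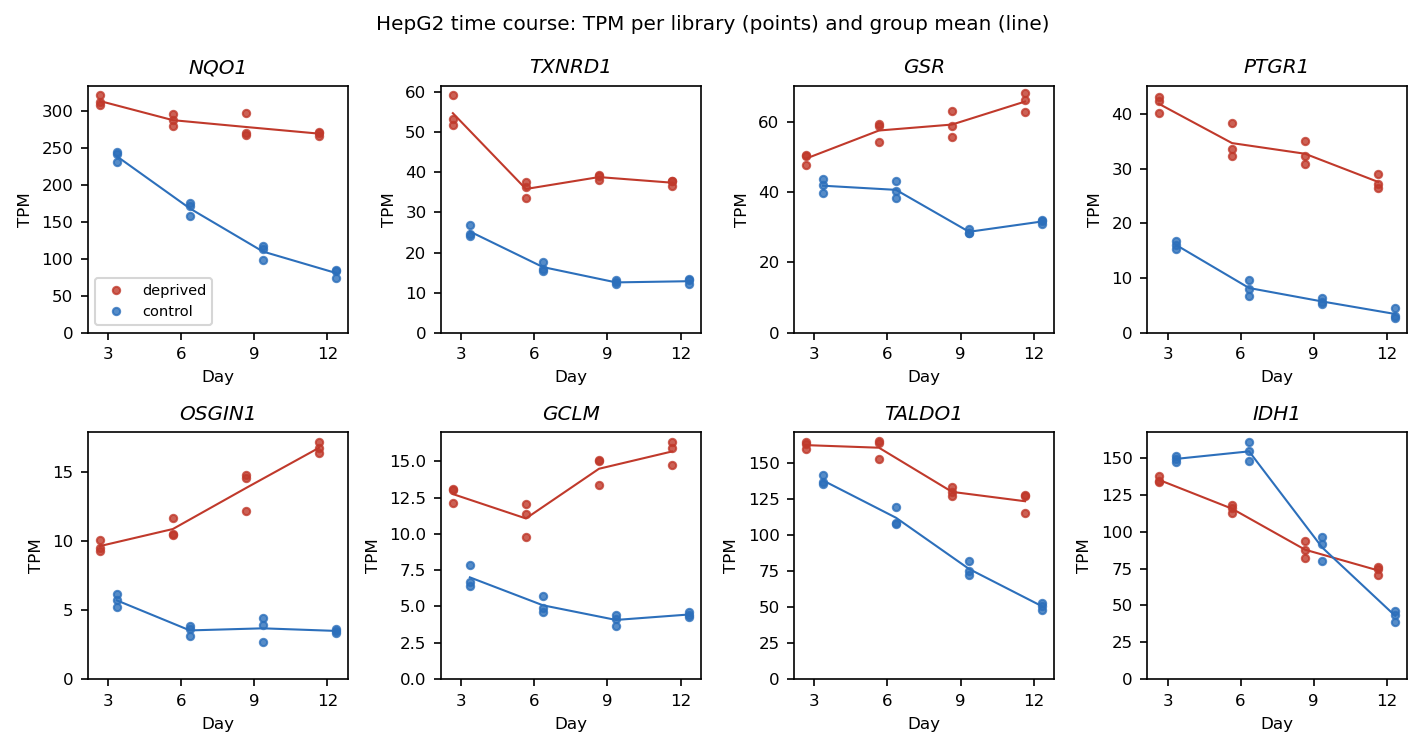
TPM of 8 members in HepG2 cells by day (points are libraries, lines join group means, deprived points set slightly left of control points). NQO1 stays between 266 and 322 TPM in deprived libraries and ends at 74 to 84.2 TPM in control libraries, OSGIN1 and GSR climb in deprived cells, and the IDH1 lines have crossed by day 12.

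RefSeq promoters (GRCh38.p14, 250 bases before to 50 after each listed start) were found for 27 of the 36 members, 35 promoters in all. The antioxidant response element core TGACNNNGC, searched on both strands, was in 13 of the 35 (37.1%) and in 4687 of all 35116 promoters (13.3%). The xenobiotic response element core GCGTG, to which AhR binds, was in 18 of the 35 (51.4%) and in 36.5% of all promoters on either strand. Matches to the antioxidant core were in promoters of ABCB6, ABCC4, CBR1, EPHX1, GCLM, GPX2, IDH1, KEAP1, ME1, PGD, PIR and TXNRD1, a set that holds members that rose, ABCB6, which fell, and KEAP1, which was not called at day 12. NQO1 and PTGR1 had no match in this window, which says only that these letters are not there. The 5 promoters below show the core, in capitals on whichever strand it was read, in thiol redox genes, a FAD reductase, a responsive gene and the inhibitor KEAP1. Each is written 5′ to 3′ on the strand of its gene. They lie at chr1:93909381-93909680 (minus strand) for GCLM, chr14:64942696-64942995 (minus strand) for GPX2, chr12:104215529-104215828 (plus strand) for TXNRD1, chrX:15493284-15493583 (minus strand) for PIR and chr19:10502722-10503021 (minus strand) for KEAP1.
GCLM: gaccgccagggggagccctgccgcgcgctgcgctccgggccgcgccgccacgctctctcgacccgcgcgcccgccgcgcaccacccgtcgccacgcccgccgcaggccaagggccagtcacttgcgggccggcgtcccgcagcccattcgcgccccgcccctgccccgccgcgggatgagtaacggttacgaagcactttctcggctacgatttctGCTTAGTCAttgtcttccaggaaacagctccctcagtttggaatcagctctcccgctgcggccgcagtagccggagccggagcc
GPX2: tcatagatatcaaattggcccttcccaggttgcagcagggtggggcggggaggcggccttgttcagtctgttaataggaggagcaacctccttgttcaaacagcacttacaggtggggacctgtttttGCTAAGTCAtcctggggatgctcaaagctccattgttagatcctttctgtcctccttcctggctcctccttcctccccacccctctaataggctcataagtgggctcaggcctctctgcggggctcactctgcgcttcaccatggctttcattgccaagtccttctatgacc
TXNRD1: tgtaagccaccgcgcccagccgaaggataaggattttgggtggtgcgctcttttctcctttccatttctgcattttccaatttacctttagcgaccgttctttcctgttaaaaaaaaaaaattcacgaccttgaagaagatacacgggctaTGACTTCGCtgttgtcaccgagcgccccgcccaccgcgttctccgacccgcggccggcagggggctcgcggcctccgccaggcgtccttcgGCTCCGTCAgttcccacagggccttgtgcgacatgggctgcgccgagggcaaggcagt
PIR: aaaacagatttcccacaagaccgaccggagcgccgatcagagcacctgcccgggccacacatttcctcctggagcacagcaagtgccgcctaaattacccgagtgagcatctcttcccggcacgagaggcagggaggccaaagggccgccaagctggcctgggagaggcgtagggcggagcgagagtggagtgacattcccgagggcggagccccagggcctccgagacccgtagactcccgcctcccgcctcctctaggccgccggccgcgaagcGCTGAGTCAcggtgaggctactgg
KEAP1: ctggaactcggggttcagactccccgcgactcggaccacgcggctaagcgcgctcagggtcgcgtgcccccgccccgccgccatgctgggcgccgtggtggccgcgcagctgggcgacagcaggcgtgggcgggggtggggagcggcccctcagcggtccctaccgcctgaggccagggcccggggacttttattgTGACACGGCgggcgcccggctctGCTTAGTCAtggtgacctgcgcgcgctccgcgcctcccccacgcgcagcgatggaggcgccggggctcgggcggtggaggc

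Positions are from the RefSeq start of each promoter, which need not be the start of the transcript measured here. The GCLM match begins 34 bases before that start, the GPX2 match 122 bases before it and the PIR match 26 bases after it. All are on the opposite strand to the gene. The transcripts measured here start upstream of these matches, at 93909598 for GCLM, 64942905 for GPX2 and 15493588 for PIR. The promoters shown for TXNRD1 and KEAP1 hold 2 matches each. Another TXNRD1 promoter (chr12:104286782-104287081) holds 1 match, 102 bases before its start. That promoter, not shown, is the nearer to the start of the TXNRD1 transcript measured here (104286682) and lies downstream of it. Another KEAP1 promoter (chr19:10503307-10503606) holds 0. A match is a description of the sequence and not a bound site.

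Deprivation for 12 days was repeated in 3 further HepG2 sets without inhibitor or with a control guide RNA. Across these and the time course, 21 of the 30 members tested in all 4 sets were called higher in each of them, which is 70.0%, while 25.9% of the 11087 genes tested in all 4 were called higher in each. The 21 were ABCC3, EPHX1, GCLC, GCLM, GPX2, GSR, MAFG, NFE2L2, NQO1, OSGIN1, PIR, PRDX1, PRDX6, PTGR1, SOD1, SQSTM1, SRXN1, TALDO1, TXN, TXNRD1 and UGDH. In the set with the control guide RNA, PRDX1 and PRDX6 turned to -0.13 and -0.03 under median scaling. Only ABCB6 was called lower in all 4. IDH1 showed how far the sets differed, being called higher in the time course (0.77) and not called beside a control guide RNA, where it gave 0.03 (-0.16 under quantile normalization and -0.21 under median scaling).

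With the IDO/TDO inhibitor present, the deprivation effect on these genes was almost gone. Without the inhibitor 28 of 30 members were called higher and 1 lower (median 1.17), where 67.9% of all genes were called and the all-gene median was 0.30. That split was 24 and 2 under quantile normalization and 22 and 2 under median scaling. With the inhibitor 0 were called higher and 1 lower (median 0.01), where 1.39% of all genes were called. The difference between the effects was called in 27 members, 26 of them towards a lower log2 fold change with the inhibitor (median -1.19). Of all genes 53.7% were called, with an all-gene median of -0.27. CES1 was not tested in this set (0.372 to 1.36 TPM).

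NQO1 in deprived cells stood at 50.9, 38.8 and 50.7 TPM with the IDO/TDO inhibitor and at 266, 252 and 262 TPM without it. In control cells it stood at 50, 53.4 and 52.1 TPM with the inhibitor and at 49.3, 49.2 and 56.5 TPM without it. The log2 difference between the effects was -2.47 ± 0.13 (SE; adjusted p = 2.83e-10), and the deprived libraries with inhibitor overlapped the controls. PTGR1 followed the same pattern, at 2.63, 1.96 and 2.33 TPM in deprived cells with inhibitor and 30.3, 28.9 and 25.9 TPM in deprived cells without it (difference -3.31 ± 0.16, adjusted p = 2.17e-10). TXNRD1 had 5.34, 6.22 and 6.44 TPM in deprived cells with inhibitor and 31.6, 31 and 29.9 TPM in deprived cells without it (difference -2.38 ± 0.13, adjusted p = 9.36e-10). GSR and SQSTM1 also differed, by -1.67 and -1.75.

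ABCC3 was the 1 member called with the IDO/TDO inhibitor present. It had 1.02, 0.588 and 0.846 TPM in deprived libraries and 1.44, 1.38 and 1.63 TPM in control libraries, a log2 fold change of -0.46 ± 0.11 (SE; adjusted p = 0.0455) near the lowest level tested. The call was lost without any of the 3 control libraries or deprived replicate 2 or 3 (adjusted p up to 0.225). Without inhibitor the same gene had 12.5, 14.1 and 13.3 TPM in deprived libraries and 1.38, 1.13 and 1.05 TPM in control libraries, and the effects differed by -3.17 ± 0.15 (adjusted p = 1.46e-10). ABCB6, which fell by 0.75 on the log2 scale without inhibitor, had 28.9, 26.8 and 25 TPM in deprived libraries and 27.8, 29.1 and 31.1 TPM in control libraries with it. The hepatocyte markers moved with these genes, summing to 32695 to 33180 TPM in deprived libraries and 35825 to 36669 TPM in control libraries with inhibitor, and to 9697 to 9978 TPM in deprived libraries and 34599 to 36278 TPM in control libraries without it. Their part in the result was not tested.

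**Figure D3:**
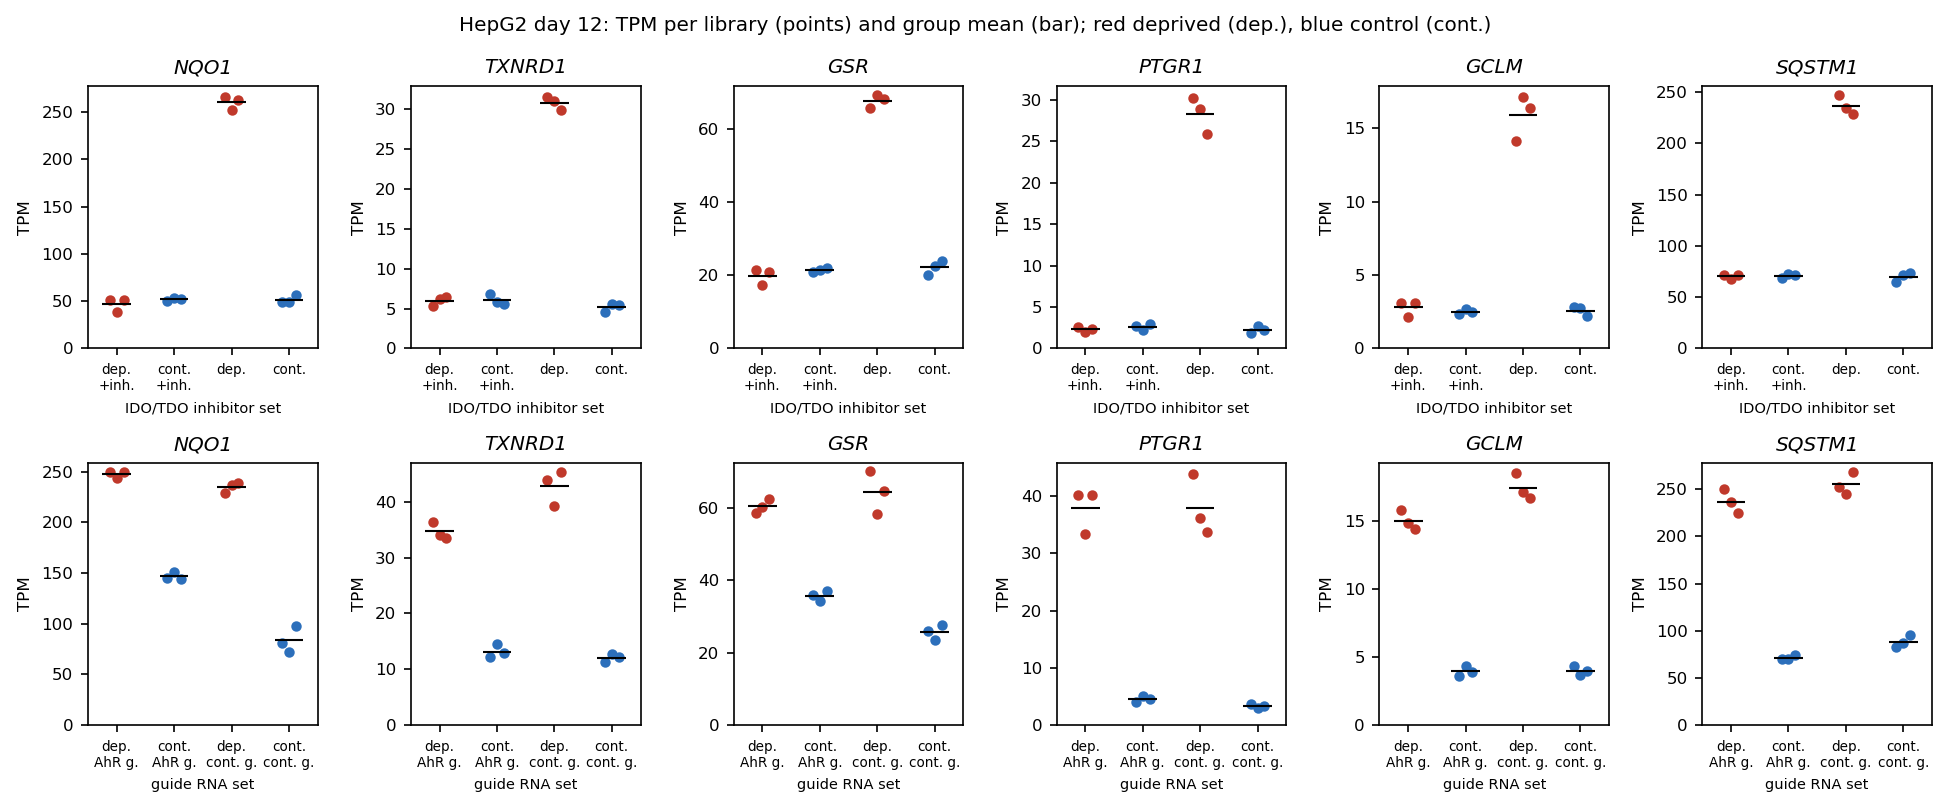
TPM of 6 members at day 12 in the IDO/TDO inhibitor set (upper row) and the guide RNA set (lower row), with points for libraries, bars for group means, red for deprived and blue for control. In the upper row only the deprived cells without inhibitor stand high (NQO1 252 to 266 TPM, other groups 38.8 to 56.5 TPM), while in the lower row deprived cells stand high with either guide.

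With the AhR guide RNA, most of the deprivation effect on the programme was still seen. CYP1A1 was 1 check of the guide: in deprived cells it averaged 1.73 ± 0.537 TPM with the AhR guide and 33.5 ± 2.33 TPM with the control guide (SD, n = 3 each), a log2 fold change of -3.68 (adjusted p = 1.02e-09). Of 4 AhR targets tested for deprivation, UGT1A6 (0.94) and SLC7A5 (0.91) were still called higher with the AhR guide. With the control guide they rose by 2.04 and 1.20. Sharing of UGT1A6 reads with other UGT1A genes was not tested. AHR mRNA itself was not called (0.17, adjusted p = 0.479), which checks nothing where the guide's site is not given. Deprivation gave 21 members called higher and 4 lower of 31 with the AhR guide (median 0.73, 53.2% of all genes called, all-gene median 0.15). With the control guide it gave 23 higher and 3 lower (median 0.88, 60.7% of all genes, all-gene median 0.20). Under median scaling the split with the AhR guide was 20 and 8. Hepatocyte markers moved with deprivation too, summing to 9093 to 9495 TPM in deprived and 22026 to 23120 TPM in control libraries with the AhR guide, and to 7944 to 8234 TPM in deprived and 29736 to 30832 TPM in control libraries with the control guide. Of these 9 markers, 1 was called higher and 7 lower with the AhR guide, and 2 higher and 7 lower with the control guide. Cholangiocyte markers summed to 787 to 820 TPM in deprived and 197 to 212 TPM in control libraries with the AhR guide, and to 667 to 700 TPM in deprived and 138 to 152 TPM in control libraries with the control guide. Of the 4 cholangiocyte markers tested, 3 were called higher with either guide, SPP1 most (3.57 with the AhR guide, 5.00 with the control guide). SOX9 was called lower (-0.21 with the AhR guide, -0.62 with the control guide). The part of either list was not tested.

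The effects with the 2 guides differed in 12 members, 2 towards a larger and 10 towards a smaller log2 fold change with the AhR guide, against 14.4% of all genes (4 and 6 under quantile normalization). NQO1 in deprived cells stood at 250, 243 and 250 TPM with the AhR guide and at 229, 236 and 238 TPM with the control guide. In control medium it stood at 145, 151 and 144 TPM with the AhR guide and at 81.3, 71.6 and 97.9 TPM with the control guide. The effects differed by -0.74 ± 0.12 (SE; adjusted p = 0.00104). The guides differed in NQO1 by 0.82 in control medium (adjusted p = 5.78e-06) and by 0.08 in deprived medium (adjusted p = 0.606). TALDO1 (-0.61 ± 0.08), GSR (-0.55 ± 0.11) and IDH1 (-0.53 ± 0.09) differed in the same direction.

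In control medium the AhR guide alone gave 15 members called higher and 7 lower (median 0.23, 36.7% of all genes called). IDH1 had 83.3, 89.6 and 81.7 TPM with the AhR guide and 42.4, 39.3 and 46.6 TPM with the control guide (log2 fold change 0.97 ± 0.07, SE; adjusted p = 2.15e-07). GPX2 (0.94), NQO1 (0.82) and CAT (0.64) were next. In deprived medium 3 members were called higher and 4 lower (median -0.02, 12.0% of all genes called). GPX2 had 333, 329 and 346 TPM with the AhR guide and 203, 202 and 207 TPM with the control guide (0.72 ± 0.05, adjusted p = 4.79e-06), and SRXN1 had 78.2, 76.4 and 72.3 TPM with the AhR guide and 119, 111 and 108 TPM with the control guide (-0.57 ± 0.05, adjusted p = 2.37e-05). IDH1 (0.44) and CAT (0.40) were again higher with the AhR guide. Proliferation markers moved with the guide in both media, summing in control medium to 354 to 358 TPM with the AhR guide and 136 to 186 TPM with the control guide, and in deprived medium to 158 to 173 TPM with the AhR guide and 95.6 to 99.0 TPM with the control guide. Their part was not tested.

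Beside the control guide RNA, PTGR1 and ABCC3 had the largest log2 fold changes of the members. PTGR1 had 43.9, 36.2 and 33.8 TPM in deprived libraries and 3.59, 3.05 and 3.38 TPM in control libraries (log2 fold change 3.16 ± 0.11, SE; adjusted p = 2.38e-11). ABCC3 had 12.1, 13.7 and 11.7 TPM in deprived libraries and 1.79, 1.88 and 2.28 TPM in control libraries (2.18 ± 0.11, adjusted p = 1.53e-09). GCLM had 18.6, 17.2 and 16.7 TPM in deprived libraries and 4.37, 3.68 and 3.94 TPM in control libraries (1.89 ± 0.08, adjusted p = 3.93e-10). All 3 had groups far apart. SRXN1 had 119, 111 and 108 TPM in deprived libraries and 31.2, 30.7 and 30.4 TPM in control libraries (1.84 ± 0.05, adjusted p = 5.75e-12). TXNRD1 had 43.8, 39.3 and 45.4 TPM in deprived libraries and 11.3, 12.7 and 12.2 TPM in control libraries (1.74 ± 0.08, adjusted p = 4.25e-10). GSR had 70.1, 58.1 and 64.7 TPM in deprived libraries and 25.9, 23.5 and 27.7 TPM in control libraries (1.29 ± 0.07, adjusted p = 5.36e-09).

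Of the regulators beside the control guide RNA, SQSTM1 had 253, 245 and 269 TPM in deprived libraries and 82.3, 86.9 and 95.1 TPM in control libraries (log2 fold change 1.53 ± 0.06, SE; adjusted p = 1.55e-10). MAFG had 38.6, 37.1 and 36.3 TPM in deprived libraries and 19.3, 15.6 and 18.2 TPM in control libraries (1.04 ± 0.08, adjusted p = 6.31e-08). NFE2L2 had 92.4, 87.1 and 92.3 TPM in deprived libraries and 54.1, 51.9 and 64.5 TPM in control libraries (0.67 ± 0.07, adjusted p = 2.8e-06). KEAP1 again had overlapping groups, with 21.8, 19.8 and 21.3 TPM in deprived libraries and 22.4, 18.7 and 20.1 TPM in control libraries (0.04 ± 0.08, adjusted p = 0.697). The 3 members that fell were ABCB6 (15.6, 15.2 and 16.9 TPM in deprived libraries, 25.4, 27.4 and 26.7 TPM in control libraries; -0.70 ± 0.06), TKT (-0.31 ± 0.07) and CAT (-0.29 ± 0.08). CAT thus fell here and was called higher in the time course at day 12.

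In the AhR inhibitor set the programme rose with and without the inhibitor. The 6 libraries with the inhibitor (10 µM in the column names) carry another date there than the 6 without it. Only the names without inhibitor give a sequencing run. Libraries with inhibitor hold 12577700 to 19427900 reads against 5891600 to 8976000 without it. Inhibitor and batch of libraries therefore cannot be told apart. Within the libraries with inhibitor, 27 members were called higher and 1 lower (median 0.95, 57.5% of all genes called, all-gene median 0.24). Within those without it, 27 were called higher and 1 lower (median 1.44, 61.5% of all genes, all-gene median 0.23). These equal splits depended on scaling. With inhibitor they became 22 and 1 under quantile normalization and 18 and 1 under median scaling. Without it they became 26 and 2, and 23 and 2. CYP1A1 averaged 1.63 ± 0.266 TPM in deprived and 4.01 ± 1.29 TPM in control libraries with inhibitor, and 14.6 ± 0.513 TPM in deprived and 2.68 ± 0.496 TPM in control libraries without it. The proliferation markers summed to 266 to 278 TPM in deprived and 89.4 to 121 TPM in control libraries with inhibitor, and to 166 to 170 TPM in deprived and 219 to 268 TPM in control libraries without it. The hepatocyte markers summed to 6974 to 7444 TPM in deprived and 27911 to 32602 TPM in control libraries with inhibitor, and to 6414 to 6640 TPM in deprived and 28360 to 30743 TPM in control libraries without it. Their part in the member changes was not tested.

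The effects differed in 19 members, 17 of them towards a lower log2 fold change with inhibitor, against 22.5% of all genes. TXNRD1 in deprived libraries had 37.2, 36.6 and 35.7 TPM with inhibitor and 74.4, 77.4 and 74.6 TPM without it, and in control libraries 12.9, 13.3 and 15.1 TPM with inhibitor and 10.5, 9.14 and 9.38 TPM without it (difference -1.50 ± 0.11, SE; adjusted p = 1.58e-06). SRXN1 in deprived libraries had 70.9, 67.3 and 66.1 TPM with inhibitor and 110, 105 and 103 TPM without it, and in control libraries 29.3, 27.8 and 44.7 TPM with inhibitor and 14.1, 16.8 and 15.8 TPM without it (difference -1.68 ± 0.19, adjusted p = 4.94e-05). SQSTM1 and OSGIN1 differed by -1.49 and -1.33. NQO1 was not among them: it had 350, 370 and 359 TPM in deprived and 113, 103 and 102 TPM in control libraries with inhibitor, and 308, 295 and 279 TPM in deprived and 74.8, 75.2 and 69.9 TPM in control libraries without it (difference -0.24 ± 0.09, adjusted p = 0.0745, called without replicate 3 of the control cells with inhibitor and under quantile normalization). That replicate stood apart from its group, as the SRXN1 values show. EPHX1 with inhibitor (0.30, adjusted p = 0.0348) gave -0.01 under median scaling.

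With Kyn, at day 12, members moved in both directions and the FAD reductases were not called. Against DMSO, 4 members were called higher and 5 lower of 31 (median -0.01), where 11.7% of all genes were called, and 3 and 6 under median scaling. Of the 4 regulators, 3 fell. SQSTM1 had 66.5, 55 and 62 TPM in Kyn libraries and 90, 86.8 and 86.6 TPM in DMSO libraries, a log2 fold change of -0.52 ± 0.06 (SE; adjusted p = 0.00015). KEAP1 had 12, 11.8 and 13.4 TPM in Kyn libraries and 17.8, 16.8 and 15.2 TPM in DMSO libraries (-0.40 ± 0.09, adjusted p = 0.00861). MAFG had 15.2, 16.9 and 16 TPM in Kyn libraries and 20.5, 20.1 and 20.6 TPM in DMSO libraries (-0.33 ± 0.08, adjusted p = 0.014, or 0.0572 without Kyn replicate 1). In these 3 genes every Kyn library lay below every DMSO library, while NFE2L2 overlapped, with 70, 63.5 and 78.7 TPM in Kyn libraries and 70.3, 68.5 and 67.9 TPM in DMSO libraries (adjusted p = 0.831).

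Among the reductases, NQO1 had 76.5, 74.3 and 78.2 TPM in Kyn libraries and 82.3, 81 and 76.7 TPM in DMSO libraries (log2 fold change -0.07 ± 0.07, SE; adjusted p = 0.567). TXNRD1 had 14.3, 13.9 and 12.7 TPM in Kyn libraries and 13.3, 14 and 14.3 TPM in DMSO libraries (-0.02, adjusted p = 0.914). GSR had 24.9, 23.1 and 22.2 TPM in Kyn libraries and 28.1, 29.6 and 26.1 TPM in DMSO libraries (-0.25, adjusted p = 0.0684), the Kyn libraries all being lower. EPHX1 had 20.2, 22.4 and 20.7 TPM in Kyn libraries and 14.4, 12.9 and 14.8 TPM in DMSO libraries (0.56 ± 0.09, adjusted p = 0.00124). SOD1 had 327, 329 and 325 TPM in Kyn libraries and 264, 284 and 269 TPM in DMSO libraries (0.26 ± 0.04, adjusted p = 0.0017). CBR1 had 16.9, 20.4 and 21.4 TPM in Kyn libraries and 15.2, 14.2 and 14.7 TPM in DMSO libraries (0.38 ± 0.09, adjusted p = 0.0121, or 0.0571 without Kyn replicate 3). CYP1A1 averaged 2.11 ± 0.345 TPM in Kyn cells and 1.73 ± 0.198 TPM in DMSO cells and was not called (SD; adjusted p = 0.521), while another AhR target, UGT1A6, averaged 30.8 ± 1.32 TPM in Kyn cells and 2.98 ± 0.640 TPM in DMSO cells. Whether UGT1A6 reads could be told apart from those of other UGT1A genes was not tested.

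With the AhR inhibitor, Kyn gave 2 members called higher and 9 lower (median -0.19, 10.8% of all genes called), and 4 and 3 under median scaling. GPX2 had 28.2, 25.8 and 32.5 TPM with Kyn and inhibitor and 49.8, 53.9 and 53 TPM with DMSO and inhibitor (log2 fold change -0.84 ± 0.09, SE; adjusted p = 7.72e-05). NQO1 had 46.5, 54 and 57.2 TPM with Kyn and inhibitor and 80.1, 77.7 and 77.6 TPM with DMSO and inhibitor (-0.57 ± 0.07, adjusted p = 0.000178). The effect of Kyn differed between cells with and without inhibitor in 7 members, 2 up and 5 down, against 8.94% of all genes, and in 3 up and 2 down under median scaling. GPX2 (-0.83 ± 0.12), NQO1 (-0.51 ± 0.10) and SQSTM1 (0.49 ± 0.09) were among them. In DMSO cells the inhibitor gave 0 called members by limma and 0 at an unadjusted p below 0.05, and 0 by voom on recovered reads, with 0% of all genes called.

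Caco-2 cells deprived for 9 days showed the thiol and reductase genes high, and the rest mixed. Of 34 members tested, 19 were called higher and 5 lower (median 0.35), where 33.7% of all genes were called and the all-gene median was -0.07. TRIM16 and TRIM16L, at 0.281 to 0.643 TPM, were not tested. OSGIN1 had 16.8, 16.5 and 16.2 TPM in deprived libraries and 4.18, 3.6 and 3.47 TPM in control libraries (log2 fold change 1.88 ± 0.10, SE; adjusted p = 5.56e-07). TXNRD1 had 57.9, 54.1 and 54.7 TPM in deprived libraries and 15, 15.7 and 17.5 TPM in control libraries (1.73 ± 0.08, adjusted p = 1.64e-07). GSR had 42.5, 47.9 and 46.8 TPM in deprived libraries and 22.4, 23.5 and 23.2 TPM in control libraries (0.96 ± 0.07, adjusted p = 5.84e-06). The groups were far apart in all 3. NQO1 was closer, with 52.2, 54.2 and 45.8 TPM in deprived libraries and 43.8, 34 and 35.9 TPM in control libraries and a log2 fold change of 0.42 ± 0.10 (adjusted p = 0.00927).

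PIR, GCLC and the regulators other than KEAP1 rose in Caco-2 cells too. PIR had 21.4, 22.2 and 22.2 TPM in deprived libraries and 9.3, 8.04 and 7.66 TPM in control libraries (log2 fold change 1.30 ± 0.09, SE; adjusted p = 4.08e-06). GCLC had 14.2, 14.8 and 14.8 TPM in deprived libraries and 5.27, 5.86 and 6.15 TPM in control libraries (1.20 ± 0.09, adjusted p = 8.41e-06). NFE2L2 had 141, 130 and 146 TPM in deprived libraries and 75.4, 69.4 and 80.6 TPM in control libraries (0.88 ± 0.07, adjusted p = 9.47e-06). The groups were apart in each. SQSTM1 had 148, 131 and 133 TPM in deprived libraries and 72.7, 69.4 and 75 TPM in control libraries (0.91 ± 0.06, adjusted p = 3.88e-06). MAFG had 39.5, 40.2 and 42.6 TPM in deprived libraries and 22.8, 22.6 and 21.4 TPM in control libraries (0.85 ± 0.07, adjusted p = 1.09e-05). KEAP1 had 10, 9.96 and 9.75 TPM in deprived libraries and 10, 9.8 and 10.6 TPM in control libraries, with overlap (-0.03, adjusted p = 0.828).

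Caco-2 cells also expressed ME1, the cytosolic malic enzyme that makes NADPH and was near 0 in HepG2. It had 64.1, 61.8 and 62.4 TPM in deprived libraries and 36.6, 36.5 and 36.7 TPM in control libraries (log2 fold change 0.76 ± 0.06, SE; adjusted p = 6.76e-06), and TKT rose by 0.45. IDH1 fell, with 21.7, 22.5 and 21.4 TPM in deprived libraries and 35.3, 32.2 and 38.8 TPM in control libraries (-0.67 ± 0.08, adjusted p = 0.000151). NADPH supply genes thus moved in both directions, 2 higher and 2 lower of 5, and the lower call of TALDO1 (-0.21, adjusted p = 0.0186) was lost without deprived replicate 1 or 2 (adjusted p up to 0.0641) and under median scaling. CBR1 had 15.1, 14.1 and 13.9 TPM in deprived libraries and 23.1, 20.1 and 25.2 TPM in control libraries (-0.63 ± 0.09, adjusted p = 0.000604). ABCC3, which rose in HepG2, had 12.2, 10.8 and 10.6 TPM in deprived Caco-2 libraries and 14.5, 15.5 and 14.6 TPM in control libraries (-0.38 ± 0.09, adjusted p = 0.00816). Enterocyte markers moved beside these genes, summing to 118 to 126 TPM in deprived libraries and 204 to 215 TPM in control libraries, and their part was not tested.

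Other genes of the same pathway, a list of 22 that are not members, were read beside them. This list too was chosen with earlier results of these data known. In HepG2 cells 10 of 20 tested were called higher and 0 lower at day 3 (4.74% of all genes called), and 16 higher and 2 lower at day 12 (52.4% of all genes). AKR1B10, an aldo-keto reductase, averaged 128 ± 8.56 TPM in deprived cells and 5.26 ± 0.779 TPM in control cells at day 12 (SD; log2 fold change 4.37), and the microsomal glutathione transferase MGST1, the ferritin light chain FTL and heme oxygenase HMOX1 rose by 2.34, 2.28 and 2.16. With the IDO/TDO inhibitor 1 of the 20 was called higher and 0 lower (1.39% of all genes), against 16 higher and 2 lower without it (67.9%). With the AhR guide 15 were higher and 2 lower (53.2% of all genes), and with the control guide 13 and 2 (60.7%). In Caco-2 cells 11 of 20 were higher and 3 lower (33.7% of all genes), among them the aldo-keto reductases AKR1C2 (1.65) and AKR1C1 (1.35) and the cystine carrier SLC7A11 (1.16). AKR1C1 and AKR1C2 are near-identical copies whose reads could be split between them. With Kyn 8 of 20 were higher and 3 lower (11.7% of all genes), and AKR1C1 (-1.14) and AKR1C2 (-1.05) were the largest changes. In mouse, 2 of 15 were higher and 0 lower in Ad-Cont hepatocytes, near the 9.78% of all genes called there, and in liver 0 of 12 were higher and 1 lower (3.41% of all genes), the glutathione transferase Gstp1 (-1.44, adjusted p = 0.0192).

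In mouse AhR-flox hepatocytes few members were called, most of them lower in deprived cells. With Ad-Cont, 2 of 31 members were called higher and 4 lower (median -0.01), where 9.78% of all genes were called. Nqo1 had 4.69, 2.65 and 3.19 TPM in deprived libraries and 5.98, 9.05 and 7.54 TPM in control libraries, a log2 fold change of -0.93 ± 0.18 (SE; adjusted p = 0.00453). Taldo1 had 233, 206 and 207 TPM in deprived libraries and 301, 278 and 286 TPM in control libraries (-0.42 ± 0.08, adjusted p = 0.00302). Every deprived library lay below every control library in both. Cbr1 lay between 210 and 301 TPM in deprived libraries and had 148, 157 and 148 TPM in control libraries (0.68 ± 0.10, adjusted p = 0.000719).

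The other calls with Ad-Cont were small and hung on single libraries. Gsr had 55.5, 45.5 and 50.2 TPM in deprived libraries and 63.1, 62.8 and 59.3 TPM in control libraries (log2 fold change -0.29 ± 0.07, SE; adjusted p = 0.0172), a call lost without control replicate 1 or 2 or deprived replicate 2 (adjusted p up to 0.0785). Abcc4 had 8.22, 7.72 and 9.16 TPM in deprived libraries and 11.6, 10.7 and 13.6 TPM in control libraries (-0.47 ± 0.11, adjusted p = 0.0173), lost without control replicate 3 or deprived replicate 2 (adjusted p up to 0.0777). Nfe2l2 had 514, 573 and 585 TPM in deprived libraries and 480, 500 and 487 TPM in control libraries (0.19 ± 0.05, adjusted p = 0.0393), lost without any control replicate or deprived replicate 2 or 3 (adjusted p up to 0.132). Txnrd1 had 126, 119 and 126 TPM in deprived libraries and 115, 132 and 129 TPM in control libraries, with overlap (-0.02, adjusted p = 0.903). Keap1 and Mafg overlapped likewise, at 66.4, 58.9 and 60.1 TPM in deprived and 57.8, 60 and 63.5 TPM in control libraries for Keap1, and at 133, 126 and 111 TPM in deprived and 115, 129 and 119 TPM in control libraries for Mafg. Sqstm1 had 454, 419 and 429 TPM in deprived libraries and 391, 401 and 388 TPM in control libraries (0.14, adjusted p = 0.0688, or 0.0243 under quantile normalization).

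With Ad-Cre, deprivation gave 0 called members by limma, 5 at an unadjusted p below 0.05 and 1 by voom, where 0.329% of all genes were called. Cbr1 had 197, 196 and 197 TPM in deprived libraries and 149, 137 and 145 TPM in control libraries (log2 fold change 0.45 ± 0.10, SE; adjusted p = 0.0807, or 0.041 by voom). The effects with Ad-Cre and Ad-Cont differed in 0 members (7 at an unadjusted p below 0.05, 1 by voom), with 0.247% of all genes called, so the change of Nqo1 was not shown to differ between them (0.84 ± 0.25, adjusted p = 0.188). Ad-Cre against Ad-Cont gave 0 called members in control hepatocytes (4 at an unadjusted p below 0.05, 0 by voom; 0.0247% of all genes) and 0 in deprived ones (7 at an unadjusted p below 0.05, 1 by voom; 1.03% of all genes). Ahr mRNA averaged 7.10 ± 0.382 TPM with Ad-Cre and 10.2 ± 0.415 TPM with Ad-Cont in deprived hepatocytes (SD, n = 3; adjusted p = 0.0225), a limited check where the floxed exon is not given. Markers of other cells moved with deprivation in the Ad-Cont hepatocytes: stellate markers summed to 6.12 to 9.40 TPM in deprived and 18.5 to 23.8 TPM in control libraries, and cholangiocyte markers to 256 to 589 TPM in deprived and 833 to 931 TPM in control libraries. Their part was not tested.

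In mouse liver, 1 of 27 members was called higher and 0 lower (median 0.08), where 3.41% of all genes were called and the all-gene median was 0.14. Cbr1, the carbonyl reductase that was also higher in Ad-Cont hepatocytes, had 161, 166, 185 and 175 TPM in deficient livers and 94.1, 104, 109 and 89.1 TPM in control livers (log2 fold change 0.79 ± 0.11, SE; n = 4 each; adjusted p = 0.00489). Nqo1 had 6.99, 11, 6.17 and 5.02 TPM in deficient livers and 3.32, 5.17, 4.91 and 3.52 TPM in control livers, a change of 0.63 ± 0.21 that did not pass (adjusted p = 0.0961). Gsr had 34.6, 44.8, 34 and 43.4 TPM in deficient livers and 23.3, 33.6, 25.2 and 36.1 TPM in control livers (0.41 ± 0.16, adjusted p = 0.139). Both genes had overlapping groups. Txnrd1 had 39.8, 42.7, 37.8 and 54.1 TPM in deficient livers and 38.1, 52.1, 43.8 and 45.5 TPM in control livers (-0.05, adjusted p = 0.866).

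The liver regulators overlapped between the diets. Nfe2l2 had 27.8, 26.3, 23.4 and 19.6 TPM in deficient livers and 19.1, 21.7, 22 and 18.8 TPM in control livers. Keap1 had 12.8, 15.3, 16.1 and 19.8 TPM in deficient livers and 14.5, 16.3, 14.8 and 17 TPM in control livers. Sqstm1 ranged over 227 to 310 TPM in deficient livers and 228 to 272 TPM in control livers, and Mafg over 14.9 to 29.8 TPM in deficient livers and 17.3 to 23.4 TPM in control livers. None of these 4 passed (adjusted p 0.275 to 0.954). Gpx2, Ptgr1, Cbr3, Aldh3a1, Abcc4 and Trim16 were too low to test in liver, with no value above 1.14 TPM.

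**Figure D4:**
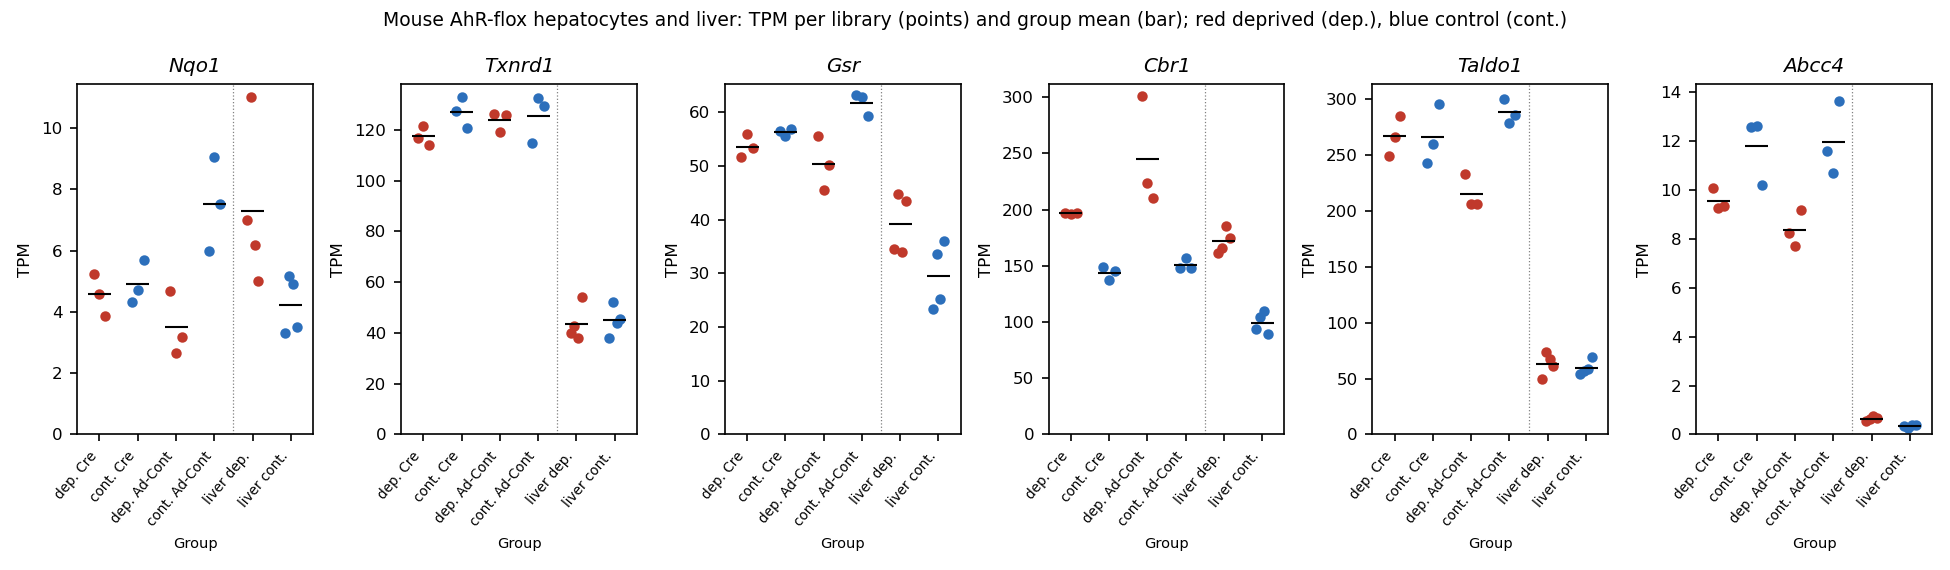
TPM of 6 members in mouse AhR-flox hepatocytes with Ad-Cre or Ad-Cont and in mouse liver (points are libraries, bars are group means, red deprived or deficient, blue control). Cbr1 stands higher in the deprived or deficient group in all 3 settings, with 161 to 185 TPM in deficient and 89.1 to 109 TPM in control livers, whereas Txnrd1 groups overlap in the Ad-Cont hepatocytes and in liver.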

How the data were processed

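The TPM values were computed by the authors and deposited as 8 tables with 1 transcript and length per gene symbol. STAR, Bowtie2 and HOMER, with the hg38 and mm10 builds, are named in the submitters' processing notes without role or version, and the column headers point to tag directories. A 3′-end library kit is named per the labels' protocols, so length scaling sets no order between genes. Listed TPM of the human tables sum to 359500 to 405213 per library, differing between groups, which scales all values of a library together.

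The tables hold 98 sample columns for 100 labelled samples in 32 groups. The 8 liver columns carry a diet but no animal, and 10 liver samples are labelled. Columns of the control and deficient diets were therefore placed by group. Nothing states that replicates are separate cultures, so p-values measure the spread between these samples. Replicate libraries differed by more than counting noise in every pair.

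Genes with at least 1 TPM in 3 libraries (4 in liver) were tested with limma 3.58.1 in R 4.3.3 on log2(TPM + 1), with 1 mean per group over all groups of a table, eBayes with trend and robust variances, and Benjamini-Hochberg adjustment over all genes tested, called below 0.05. Differences between effects were contrasts of the same fit. Reads were recovered from the steps of the TPM values (whole within 0.1 for genes up to 3000 bases and 20 reads) and used for depth and for a voom alternative. Other alternatives were pseudocounts of 0.5 and 5, no filter, quantile normalization, median scaling, eBayes without trend and robust variances, a replicate block, fits of 2 groups only, and each library left out in turn. The fit was tested on simulated data.

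The members and the gene lists were chosen with earlier results of these data known. Values per library are given for NQO1, TXNRD1, GSR, NFE2L2, KEAP1, SQSTM1 and MAFG and for up to 4 called members with the largest rise and 3 with the largest fall at a mean of at least 5 TPM, and in other comparisons for up to 4 called members by size. Further members are named from their role or because a call depends on a library or setting. Promoters came from RefSeq (GRCh38.p14), matched by symbol.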

Additional observations from a re-analysis of the deposited data

Results flagged for a closer look

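Several effects differed between conditions by a test of the difference itself. The deprivation effect at day 12 differed from that at day 3 in 24 members (37.7% of all genes). The widest gaps were in ABCC3 (1.64), PTGR1 (1.39), NQO1 (1.34) and OSGIN1 (1.32) on the log2 scale. With the IDO/TDO inhibitor the deprivation effect differed from that without inhibitor in 27 members (53.7% of all genes). The gaps were -3.31 in PTGR1, -3.17 in ABCC3, -2.47 in NQO1 and -2.38 in TXNRD1. With the AhR inhibitor the deprivation effect differed in 19 members (22.5% of all genes), in libraries whose batch cannot be told apart from the inhibitor. The largest gaps were -1.68 in SRXN1, -1.50 in TXNRD1, -1.49 in SQSTM1 and -1.33 in OSGIN1. With the AhR guide RNA the deprivation effect differed in 12 members (14.4% of all genes), by -0.74 in NQO1, -0.61 in TALDO1, -0.55 in GSR and -0.53 in IDH1. The Kyn effect with the AhR inhibitor differed from that without it in 7 members (8.94% of all genes). Among them were GPX2 (-0.83), GCLC (-0.60), NQO1 (-0.51) and SQSTM1 (0.49), and the GCLC value lost its call without any of 7 libraries.

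In mouse liver, single samples stood far from the rest of their group in 5 of 66 gene and diet groups, and chance gives about 1 in 20 groups. Abcc3 was at 119 TPM in 1 deficient liver, against 49.4, 54.5 and 60.4 TPM in the others. Tkt was at 23.9 TPM in 1 deficient liver, against 34.7, 34.9 and 35.7 TPM in the others. Gclc was at 39.7 TPM in 1 control liver, against 55.2, 57.2 and 57.9 TPM in the others. Gpx2 at 0.0620 TPM in 1 deficient liver and Aldh3a1 at 0.0310 TPM in 1 control liver stood beside values listed at 0.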

How the results depend on the processing

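The count of called members stayed within 1.5 times its reported value in 234 of 252 counts under another setting and in 191 of 212 counts without a library. Among fold changes called either as reported or under the alternative, 0 changed sign without a library and 17 did so under another scaling. Where a value moved, the cause was not tested.

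The 12 members whose deprivation effect differed between guides became 7 without a filter and 7 without trend and robust variances. With Ad-Cre, the 0 called members became 1 by voom on recovered reads and 2 in a fit of 2 groups only. The 0 for the Ad-Cre difference between effects and the 0 for Ad-Cre in deprived hepatocytes each became 1 by voom. The 1 called member with the IDO/TDO inhibitor became 0 with a pseudocount of 5, without a filter, without trend and robust variances, with the replicate block and in a fit of 2 groups only. The 11 members called for Kyn with the AhR inhibitor became 6 without a filter, 6 under quantile normalization, 7 under median scaling, 7 without trend and robust variances and 7 in a fit of 2 groups only. The 7 whose Kyn effect differed became 4 without a filter and 4 without trend and robust variances.

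Leaving out 1 library gave 3 to 9 called members for deprivation with Ad-Cont (3 without deprived replicate 2, 9 without deprived replicate 1), 0 to 3 for the Ad-Cre difference between effects and 0 to 4 for Ad-Cre in deprived hepatocytes (both highest without deprived Ad-Cont replicate 1). It gave 0 to 1 with the IDO/TDO inhibitor, 6 to 8 for Kyn with the AhR inhibitor, 4 to 6 for the Kyn difference and 1 to 2 in liver.

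Under quantile normalization IDH1 beside the control guide turned to -0.16, KEAP1 without the IDO/TDO inhibitor to -0.06, and in control cells at day 12 against day 3 GCLC to 0.22 and SRXN1 to 0.07. Under median scaling IDH1, PRDX1 and PRDX6 beside the control guide turned to -0.21, -0.13 and -0.03, EPHX1 with the AhR inhibitor to -0.01, TXN in deprived cells at day 12 against day 3 to 0.16, and GCLC and SRXN1 in control cells to 0.22 and 0.07. Without the IDO/TDO inhibitor it turned KEAP1 to -0.14, ABCC2 to -0.03, PGD to -0.08 and PRDX1 to -0.03, and the difference between effects to 0.06 in PGD and 0.01 in PRDX1.

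Replicate numbers did not pair the samples, with correlations of same-numbered deviations between -0.11 and 0.09. With the replicate block 28 members were called at day 12 in place of 27, and the count with the IDO/TDO inhibitor was the only one it moved by over 1.5 times. Members below 1 TPM were mostly removed by the filter and are untested, and no detection limit was measured.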

Other observations

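Peroxide and thiol enzymes outside the member list were also measured in HepG2 cells. Of 16 tested, 0 were called in either direction at day 3 (median log2 fold change -0.02), where 4.74% of all genes were called. Day 6 gave 6 called higher and 2 lower (33.0% of all genes), day 9 gave 10 higher and 1 lower (49.1%), and day 12 gave 13 higher and 0 lower (median 0.70; 52.4%). GPX1, the cytosolic glutathione peroxidase, averaged 33.7 ± 2.63 TPM in deprived cells and 10.2 ± 0.967 TPM in control cells at day 12 (SD, n = 3 each; log2 fold change 1.62), and 38.1 ± 5.01 TPM in deprived cells and 34.4 ± 1.22 TPM in control cells at day 3 (0.14, adjusted p = 0.479 by limma). Glutaredoxin (GLRX), GPX3 and GPX4, which reduces lipid peroxides, rose by 1.17, 1.13 and 0.95 at day 12. In Caco-2 cells 2 of 15 were called higher and 6 lower (median -0.24; 33.7% of all genes called), the lower ones including the peroxiredoxins PRDX2 (-0.50), PRDX3 (-0.32) and PRDX4 (-0.55). The difference between the cell lines was not tested, since they were measured in separate tables at other days. With the IDO/TDO inhibitor 0 of 16 were called in either direction (1.39% of all genes), against 12 higher and 1 lower without it (67.9%).

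Of 11 other regulators of NRF2, 4 were called higher and 2 lower in HepG2 at day 12 (median 0.08), a share near the 52.4% of all genes called. MAFK and MAFF, small MAF partners beside MAFG, had log2 fold changes of -0.63 and -0.44 in the HepG2 time course at day 12. With the AhR guide both were called higher in deprived HepG2 cells at day 12 (0.64 and 0.68). With the control guide neither was called. In Caco-2 they rose by 0.76 and 1.97, where 33.7% of all genes were called.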
